A study of Arabidopsis thaliana with 4 samples.

Results

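psbA is the chloroplast gene of D1, a reaction-centre protein of photosystem II. It is 1 of the 130 distinct gene intervals of the Arabidopsis thaliana chloroplast genome and 1 of its 86 protein-coding intervals. The gene was taken by its annotated interval, 383 to 1444 on the minus strand (ArthCp002, 1062 nt, 1 exon), together with 200 nt on each side, so the choice used no measured value. The reads came from RNA immunoprecipitation and sequencing (RIP-seq): an antibody against the HA tag was applied to stroma, the soluble fraction of the chloroplast, from plants 2 weeks old. The labels put 2 libraries in the group dPPRrbcL (genotype transgenic dPPRrbcL) and 2 in the group WT (Col-0), whose stroma went through the same immunoprecipitation. All plants grew under 12 h of light at 21 °C and 12 h of darkness at 18 °C. The labels give no promoter for the transgene and no number of lines or plants, so p-values measure the spread between these libraries, which may be technical. The design names rbcL mRNA as the intended RNA of dPPRrbcL and asks which other RNAs are recovered with it. psbA mRNA is one of the RNAs to which that question applies.

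Photosystem II splits water with light energy at a core built on the D1 and D2 proteins. D1 is damaged by light and is replaced continually, and psbA mRNA is accordingly among the most abundant mRNAs of a mature chloroplast. D2 is encoded by psbD, the inner antenna proteins CP47 and CP43 by psbB and psbC, and cytochrome b559 by psbE and psbF. Proteins of the pentatricopeptide repeat (PPR) family bind chloroplast and mitochondrial RNAs, often near transcript ends.

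The stretches of psbA on which the results turn are printed from the chloroplast sequence of TAIR10.1, in the direction of the mRNA, 5′ to 3′. The first is the promoter stretch in which the motifs TTGACA and TATACT (capitals) lie upstream of the covered transcript. The second opens the coding sequence, with the start codon in capitals, and holds the 5′ maximum of the coverage. The third is the least covered coding stretch. The fourth holds the maximum of dPPRrbcL, and the fifth, which follows it directly, the highest change between the groups.
chloroplast:1530-1559: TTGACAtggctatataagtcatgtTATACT
chloroplast:1395-1444: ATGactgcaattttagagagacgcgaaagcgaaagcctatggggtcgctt
chloroplast:1195-1244: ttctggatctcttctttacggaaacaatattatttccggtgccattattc
chloroplast:695-744: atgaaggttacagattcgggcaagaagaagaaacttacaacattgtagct
chloroplast:645-694: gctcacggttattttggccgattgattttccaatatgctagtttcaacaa

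The libraries differed in composition in a way that touches every value below. Summed coverage ran from 1602408234 to 1995360151 nt over the 4 libraries, both of these in WT. Where 2 values of a group are given, that of replicate 1 comes first. The rRNA genes held 90.9% ± 0.79 (SD, n = 2) of it for dPPRrbcL, and for WT 98.6% ± 0.25 (SD, n = 2). Protein-coding genes held 5.84% ± 0.56 (SD, n = 2) for dPPRrbcL, and for WT 0.50% ± 0.142 (SD, n = 2). More RNA of one kind and less of another cannot be told apart from such shares. The files do not separate strands, so antisense transcripts cannot be told apart from mRNA.

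psbA was covered far more deeply in dPPRrbcL than in WT. The dPPRrbcL libraries had a mean of 11526 and 10626 reads per nucleotide over the gene, against 511 and 687 for WT. Both dPPRrbcL libraries lay above both WT libraries, by a ratio of group means of 18.5. Scaled to the mean coverage of the whole genome, psbA rose by 3.87 on the log2 scale (SE 0.23, adjusted p = 0.00013 by limma). Under that scaling 97.3% of the 112 genes tested were called higher and 0 lower, and the median gene was at 1.53, so nearly all chloroplast genes moved the same way as psbA. Scaled by the median ratio over genes instead, 31 genes were higher and 34 lower, and psbA was at 0.34 (SE 0.08, adjusted p = 0.0405 by limma). A value that needs no pseudocount and is the same under each scaling is the excess over the median gene. It was 0.25 on the log2 scale for psbA, at rank 43 of the 109 genes covered in every library, and 1.04 for rbcL, at rank 16. The rRNA share moved with the groups, and its part in the rise of psbA was not tested.

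The share of psbA in summed protein-coding coverage, which is free of rRNA, was also higher in dPPRrbcL. The dPPRrbcL shares were 10.4% and 10.5%, those of WT 6.82% and 7.58%. The groups did not overlap, and they lay 3.27 percentage points apart, more than the replicate spread (SD of the difference 0.54). The exact permutation test (two-sided) gave p = 0.333, the smallest that 2 libraries against 2 allow. Without rbcL in the sum the shares were 14.9% and 14.9% in dPPRrbcL, and 7.77% and 8.58% in WT, a difference of 6.75 percentage points. The rbcL share itself was 30.0% and 29.7% in dPPRrbcL and 12.2% and 11.6% in WT.

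Scaled to protein-coding coverage, the log2 change of psbA was 0.54 (SE 0.11, limma adjusted p = 0.0152). Its differences over the 4 combinations of a dPPRrbcL and a WT library ran from 0.46 to 0.62, all above 0. Under this scaling 39.3% of all genes tested were called higher and 27.7% lower, with a median log2 change of 0.31, and psbA ranked 37 of the 85 protein-coding genes tested. Without dPPRrbcL replicate 1 or 2 the change was 0.55 and 0.54, and without WT replicate 1 or 2 it was 0.47 and 0.62. The call was lost without either dPPRrbcL library, where the replicate spread comes from the WT libraries alone. That loss came with little change in the estimate.

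**Figure D1:**
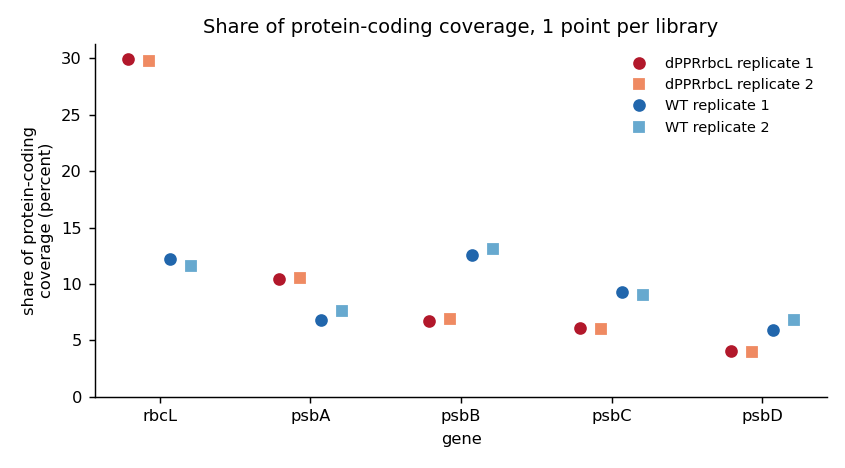
Share of protein-coding coverage in percent (vertical axis) for rbcL, psbA, psbB, psbC and psbD (horizontal axis), 1 point per library. psbA lies at 10.4% and 10.5% in dPPRrbcL against 6.82% and 7.58% in WT, while the dPPRrbcL points of psbB, psbC and psbD lie below the WT points.

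By mean coverage per nucleotide psbA held rank 2 of the protein-coding genes in both dPPRrbcL libraries, rank 4 in WT replicate 1 and rank 3 in WT replicate 2. In dPPRrbcL it stood well apart from its neighbours in that order: rbcL reached 212% and 209% of its level in replicates 1 and 2, and psbB, the next gene, 44.7% and 45.4%. In WT the neighbours lay closer. psbB reached 128% and 120% of the psbA level, psbC 102% and 88.7%, and psbD 87.0% and 90.3%, so that psbC lay above psbA in one library and below it in the other.

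psbA and the mRNAs of its partner proteins in the photosystem II core moved apart. The ratio of psbA to psbD, the D2 mRNA, was 2.59 and 2.63 in dPPRrbcL, and 1.15 and 1.11 in WT. The ratio of psbA to psbB was 2.24 and 2.20 in dPPRrbcL, and 0.782 and 0.831 in WT. The ratio of psbA to psbC was 2.31 and 2.34 in dPPRrbcL, and 0.980 and 1.13 in WT. In each of these 3 comparisons both dPPRrbcL libraries lay above both WT libraries, by 2.31-fold, 2.75-fold and 2.21-fold of the group means. Each exact two-sided permutation test gave 0.333, the smallest p the design allows. These ratios were computed after the values had been seen, and the psbD and psbC reading frames overlap by 53 nt. Against rbcL the order was the opposite: the ratio of psbA to rbcL was 0.472 and 0.479 in dPPRrbcL and 0.758 and 0.884 in WT, without overlap (exact two-sided permutation p = 0.333).

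Among the 15 chloroplast genes of photosystem II, the changes ran from -0.92 to 3.36 relative to protein-coding coverage, and psbA lay in the middle. Scaled to the library total, all 15 were called higher (97.3% of all genes were), with a median log2 change of 3.28 against 1.53 for all genes tested. The pseudocount, 104 to 129 reads per nucleotide here, lowers the change of genes of low coverage: psbA lay 2.34 above the median gene with it and 0.25 without it. Scaled to protein-coding coverage, 8 were higher, 3 lower and 4 not called (39.3% and 27.7% of all genes were called higher and lower). The median log2 change of the list was 0.54, the value of psbA, against 0.31 for all genes tested. Without either dPPRrbcL library fewer genes were called, in the list and among all genes tested. The replicate spread of those fits comes from the WT libraries alone.

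The 3 lower genes were psbB, psbC and psbD. psbB, with 5149 and 4822 reads per nucleotide for dPPRrbcL against 654 and 826 for WT, fell by 0.92 on the log2 scale relative to protein-coding coverage (SE 0.09, limma adjusted p = 0.00388). psbC fell by 0.60 (SE 0.09, limma adjusted p = 0.00883) and psbD by 0.67 (SE 0.12, limma adjusted p = 0.0116). When the coverage that lies in neither rRNA nor tRNA genes set the scale, psbB was at -0.16 (adjusted p = 0.302 by limma), and psbC and psbD turned to 0.16 and 0.09. Over all genes that scale gave 74 higher and 17 lower calls.

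Of the genes for cytochrome b559, psbE, at 3992 and 3555 reads per nucleotide for dPPRrbcL against 64.2 and 70.1 for WT, rose by 2.11 on the log2 scale relative to protein-coding coverage (SE 0.11, limma adjusted p = 0.00146). psbF rose by 0.94 (SE 0.11, limma adjusted p = 0.0047). The small subunit genes psbL and psbJ of the same operon rose by 2.15 and 1.62. psbM, another small subunit gene, had 421 and 316 reads per nucleotide for dPPRrbcL against 2.23 and 1.60 for WT, the lowest WT coverage of the list. It passed the filter of a mean coverage of 10 through the dPPRrbcL libraries alone, so its log2 change of 3.36, counted among the 8 higher, is given as a description. That value was 1.73 with a pseudocount of 10%, below psbE at 1.98 and psbL at 1.91. It was 0.76 with median-ratio scaling, below psbE, psbL and psbJ, where the pseudocount was 29.2 to 472 reads per nucleotide. Without a pseudocount the excess of psbM over the median gene was 3.62, at rank 1 of 109, against 1.84 for psbE. The place of psbM in the list thus depends on the pseudocount. psbZ rose by 0.96 and psbN, an assembly factor gene on the opposite strand between psbT and psbH, by 0.49. The log2 changes of psbH, psbT, psbK and psbI were 0.70, 0.29, 0.25 and 0.04 and did not pass the threshold. psbA held rank 8 of the 15: psbM, psbL, psbE, psbJ, psbZ, psbF and psbH lay above it, and psbN, psbT, psbK, psbI, psbC, psbD and psbB below.

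**Figure D2:**
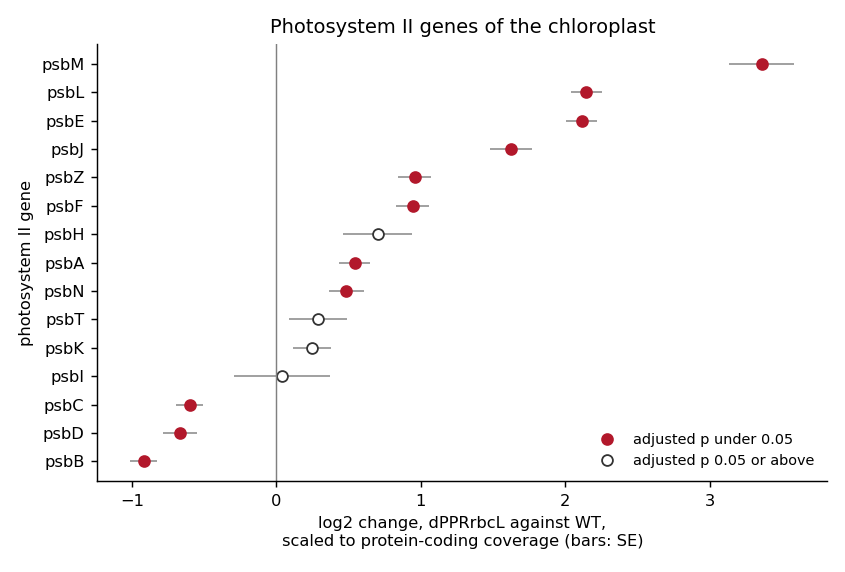
Log2 change of dPPRrbcL against WT scaled to protein-coding coverage (horizontal axis, bars SE of the limma model) for the 15 photosystem II genes (vertical axis), filled where the adjusted p was under 0.05. psbA lies at 0.54 and psbB lowest at -0.92. psbM is highest at 3.36 with this scaling and a pseudocount of 1%, a place that depends on the pseudocount. It is not highest with median-ratio scaling, at 0.76, where the pseudocount in WT is 29.2 and 34.0 reads per nucleotide.

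The outermost limits of the covered stretch of psbA were close in both groups, while the limits at a higher level of coverage differed. Going upstream from the start codon, coverage stayed at or above 10% of the library's own psbA mean up to 1515, 71 nt before the start codon, in each of the 4 libraries. The limit at 1% was 1515 in both dPPRrbcL libraries, 1521 in WT replicate 1 and 1526 in WT replicate 2. At 50% of the psbA mean the groups did not overlap: the limit lay 56 and 59 nt before the start codon in dPPRrbcL, and 62 and 64 nt before it in WT. The base just before the start codon stood at 141% and 172% of that mean in dPPRrbcL, and at 213% and 268% in WT. The 50% limit is relative to the psbA mean and so does not place the transcript end. The largest single-base rise lay at a different base in each library, 68 and 54 nt before the start codon in dPPRrbcL and 41 and 71 nt before it in WT. Beyond it the flank was nearly empty: the stretch 1545 to 1644 held 62.8 and 23.6 reads per nucleotide for dPPRrbcL, and 6.76 and 1.71 for WT. That is 0.545% and 0.222% of the psbA mean in dPPRrbcL, and 1.32% and 0.249% in WT, where the groups overlap.

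The promoter stretch printed above lies just beyond this limit. TTGACA, at 1554 to 1559, and TATACT, at 1530 to 1535, are spellings of the elements that the bacterial-type chloroplast RNA polymerase recognizes, and each occurs once in the 200 nt flank, on the strand of psbA. TATACT ends 15 nt upstream of the 10% limit. On either strand TTGACA is found in 15.4% and TATACT in 10.8% of the 130 windows of 200 nt upstream of chloroplast genes. The spacing of 18 nt was taken from psbA itself, so the match of its own window was fixed in advance. Both motifs at that spacing occur in 1 window, that of psbA, and other spacings are not given. The motifs do not overlap, and a match is a description of the sequence, not a measured site.

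At the 3′ end the largest single-base fall of coverage lay at 341, 42 nt after the stop codon, in each of the 4 libraries. Coverage stayed at or above 1% of the psbA mean down to 331 in all of them. At 50% of that mean the limit lay 9 and 3 nt after the stop codon in dPPRrbcL, and 37 and 38 nt after it in WT, without overlap. The bin 345 to 394 stood at 49.2% and 48.7% of the psbA mean in dPPRrbcL, and at 57.5% and 74.9% in WT. Coverage in dPPRrbcL thus lay close to the 50% level there, and this limit does not place the transcript end. The base after 341 opens the longest stem of the 3′ flank that a search with A-U, G-C and G-U pairs found. It has 16 pairs, 1 of them G-U, with a loop of 7 nt, and reaches from 340 to 302. Chloroplast mRNAs commonly end in such stems, which is given here as background. The 1% limit at 331 lies inside this stem, before its far end at 302. The part of the stem in the 3′ end of psbA was not tested. Further downstream, from 183 to 282, dPPRrbcL had 12.3 and 8.87 reads per nucleotide, and the stretch is listed at 0 in both WT libraries.

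Within the gene the coverage rose and fell along the same course in all libraries. The opening stretch printed above, 1395 to 1444, held 18049 and 20435 reads per nucleotide for dPPRrbcL and 1201 and 2016 for WT. The trough at 1195 to 1244 had 2073 and 1906 in dPPRrbcL, and 92.1 and 131 in WT, and the crest at 695 to 744 had 25046 and 24180.0 in dPPRrbcL, and 1011 and 1259 in WT. Over the 21 coding bins of 50 nt, Pearson's r of log2 coverage was 0.99 between the dPPRrbcL libraries and 0.97 between the WT libraries, and ran from 0.89 to 0.98 between groups. The bins are neighbours of one transcript and share reads, so these are descriptions. The r of log2 coverage with the GC content of the bins ran from 0.20 to 0.32 in the 4 libraries.

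**Figure D3:**
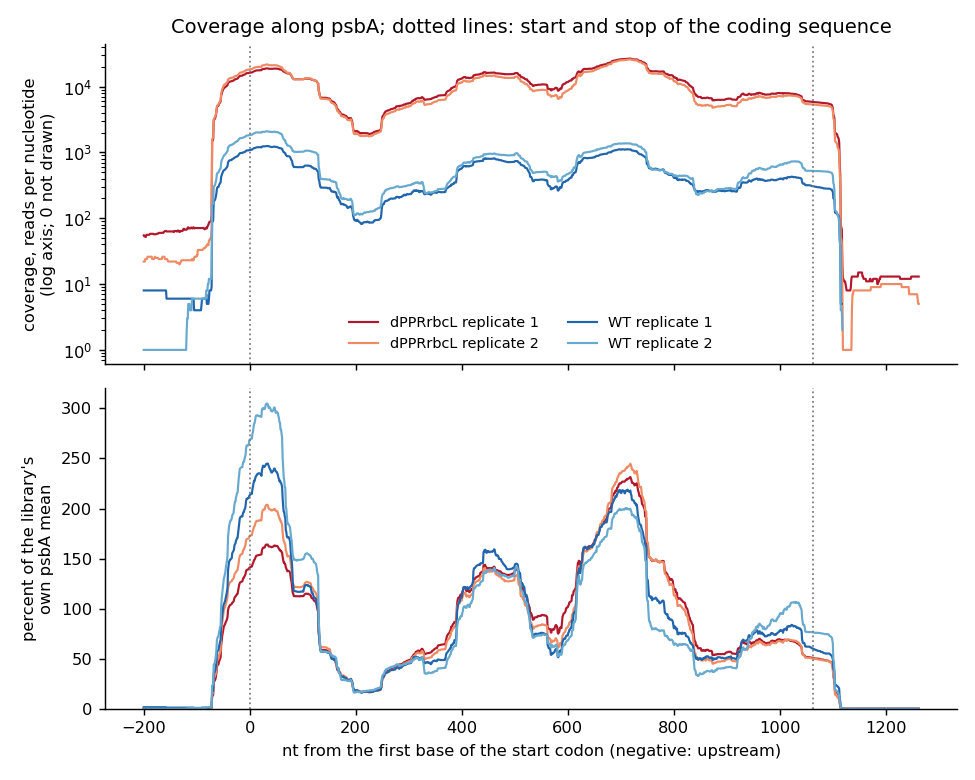
Coverage along psbA against the distance from the start codon in nt, in reads per nucleotide on a log axis (top) and in percent of each library's own psbA mean (bottom), 1 line per library. The outer limits of coverage at 1% of the psbA mean run from 71 to 82 nt before the start codon and lie 52 nt after the stop codon in all 4 libraries, the WT lines are highest near the start codon and the dPPRrbcL lines near 718 nt.

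The weight of the profile differed between the groups. The single highest base lay at 727, 718 nt into the coding sequence, in both dPPRrbcL libraries, and at 1411 in WT replicate 1 and 1412 in WT replicate 2, 34 and 33 nt into it. Relative to the psbA mean of the same library, the opening bin stood at 157% and 192% in dPPRrbcL and at 235% and 294% in WT. The bin at 645 to 694 stood at 142% and 141% in dPPRrbcL and at 103% and 77.3% in WT. The trough at 1195 to 1244 stood at 18.0% and 17.9% in dPPRrbcL and at 18.0% and 19.1% in WT, so the groups were close there. Of the 21 coding bins, 8 were higher in both dPPRrbcL libraries than in both WT libraries, 5 were lower in both, and 8 overlapped. Over all bins of the genome, scaled to psbA in the same way, 26.9% were above and 44.8% below without overlap.

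No bin of psbA departed from the change of the gene as a whole past the threshold. With coverage scaled to psbA's own mean, 0 of 27 tested bins were called by limma after adjustment (2 were higher and 2 lower at p under 0.05 without it), against 9.28% of all bins called higher and 28.6% lower. The smallest adjusted p in psbA was 0.06, for 645 to 694, at 0.66 on the log2 scale (SE 0.19, limma), and the opening bin had the lowest change, -0.59 (SE 0.20, limma adjusted p = 0.0853). More bins were called without either WT library, where the replicate spread comes from the dPPRrbcL libraries alone.

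Scaled to protein-coding coverage, 6 of the 27 bins were higher, all within the coding sequence, and 0 were lower (limma; 14 and 0 without adjustment). Over the genome 19.1% of bins were called higher and 18.2% lower. The 6 lay at 1095 to 1144, 1045 to 1094, 845 to 894, and in the run of 3 bins from 595 to 744. The highest was 645 to 694, with 16399.7 and 14964 reads per nucleotide for dPPRrbcL against 525 and 531 for WT, which is 1.21 on the log2 scale (SE 0.19, adjusted p = 0.0175 by limma). The opening bin had -0.06 (SE 0.26, limma adjusted p = 0.877) by this measure, and the bin across the stop codon, 345 to 394, had 0.12 (SE 0.26, limma adjusted p = 0.731). Fewer bins were called without either dPPRrbcL library and more without either WT library. In such a fit the replicate spread comes from the other group alone. Scaled to the library total, 26 of the 27 bins were higher and 0 lower, beside 94.7% higher and 1.18% lower among all bins. The 26 included the flank bin 1595 to 1644, with 58.8 and 24.4 reads per nucleotide for dPPRrbcL against 7.72 and 0.94 for WT. That bin and the bin 1545 to 1594, at 5.8 and 2.48 in WT, passed the coverage filter through the dPPRrbcL libraries alone. Both bins lay below the pseudocount of this scaling in every library, so their changes are given as descriptions.

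**Figure D4:**
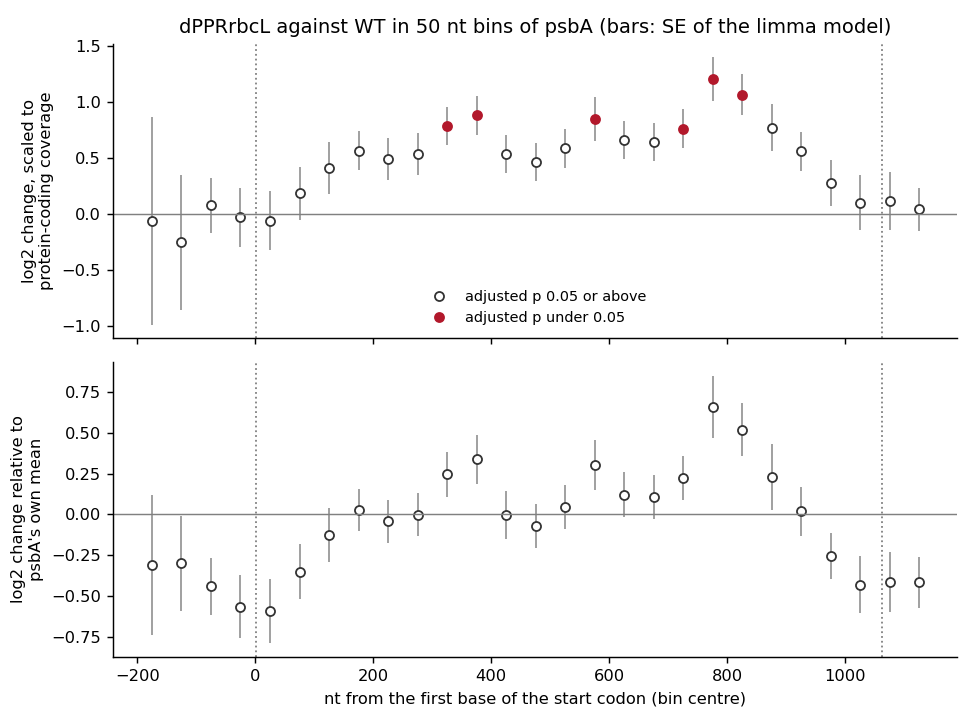
Log2 change of dPPRrbcL against WT in bins of 50 nt (points, bars SE of the limma model) by distance of the bin centre from the start codon in nt, scaled to protein-coding coverage (top) and to psbA's own mean (bottom). Filled points passed an adjusted p of 0.05: 6 in the top panel and 0 in the bottom panel, with the highest value, 1.21 and 0.66, in the same bin.

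Ratios within a library need no scaling between libraries. The 200 nt before the start codon were covered 0.332 and 0.397 times as deeply as the coding sequence in dPPRrbcL, and 0.481 and 0.595 times in WT. The 200 nt after the stop codon were covered 0.105 and 0.102 times as deeply in dPPRrbcL, and 0.124 and 0.156 times in WT. Coverage of the first 300 coding nt over that of the last 300 was 1.03 and 1.23 in dPPRrbcL, and 1.38 and 1.72 in WT. With these settings both dPPRrbcL libraries lay below both WT libraries in all 3 ratios, and each exact two-sided permutation test gave 0.333, the smallest p possible. With stretches of 100 nt the first to last ratio overlapped between the groups, at 2.26 and 2.70 in dPPRrbcL against 2.67 and 2.70 in WT (exact two-sided permutation p = 0.667). That ratio turned to higher in dPPRrbcL when medians replaced means, at 0.859 and 0.930 against 0.760 and 0.812.

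In rbcL the 5′ flank ratio and the first to last ratio moved the opposite way. The 3′ flank ratio was not computed for rbcL. Its 5′ flank of 200 nt was covered 1.17 and 1.22 times as deeply as its coding sequence in dPPRrbcL and 0.271 and 0.268 times in WT. Its first to last ratio was 1.92 and 1.90 in dPPRrbcL, and 0.721 and 0.656 in WT. Divided by the rbcL value of the same library, the psbA flank ratio was 0.283 and 0.326 in dPPRrbcL and 1.77 and 2.22 in WT, without overlap between the groups (exact two-sided permutation p = 0.333). The lowest change among the coding bins of psbA was that of its opening bin.

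The genes on either side of psbA were covered at a small part of its level. matK, the maturase gene inside the trnK intron, held 486 and 433 reads per nucleotide for dPPRrbcL and 24.2 and 30.5 for WT, which is 4.21% and 4.07% of psbA in dPPRrbcL and 4.74% and 4.44% in WT. Its log2 change relative to protein-coding coverage was 0.38 (SE 0.09, limma adjusted p = 0.0273). Without dPPRrbcL replicate 1 or 2 the change was 0.36 and 0.40, with the replicate spread from the WT libraries alone and no call. The call was also lost with median-ratio scaling, where the change was 0.10 (limma adjusted p = 0.112). The trnK exon next to psbA, 1717 to 1751, held 67.9 and 48.9 reads per nucleotide for dPPRrbcL and 8.74 and 4.71 for WT. trnH, 4 to 76, had 74.7 and 91.8 in dPPRrbcL and 5.05 and 8.32 in WT. The trnK interval consists mostly of its intron, with matK in it. Over its exons alone trnK fell by 1.47 on the log2 scale (SE 0.10, adjusted p = 0.00133 by limma). These include the exon far from psbA, 4311 to 4347, with 371 and 340 reads per nucleotide for dPPRrbcL and 75.5 and 90.2 for WT. The change of each exon by itself was not fitted. The log2 changes of the whole trnK interval and of trnH were -0.30 and -0.01 with no call (adjusted p = 0.0757 and 0.98 by limma), and both changed sign when rbcL was left out of the scaling, to 0.02 and 0.29.

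The protein-coding gene whose pattern over the 4 libraries was most like that of psbA was this neighbour, matK. Likeness was measured as the root mean square difference of centred log2 values scaled to protein-coding coverage, over 4 libraries, and was 0.09 for matK. It was 0.11 for rps19, a ribosomal protein gene, 0.11 for ycf4, a photosystem I assembly gene, 0.11 for rpoC2, an RNA polymerase subunit gene, and 0.12 for accD, a subunit gene of acetyl-CoA carboxylase. In WT rps19 had 4.10 and 6.25 reads per nucleotide, rpoC2 5.03 and 5.45, and accD 5.12 and 5.37. These genes passed the filter of a mean coverage of 10 through the dPPRrbcL libraries alone. Their changes ran from 0.81, 0.71 and 0.69 with a pseudocount of 0.1% to 0.34, 0.30 and 0.29 with 10%, so their likeness to psbA is a description that depends on the pseudocount. The median over the 84 genes compared was 0.32. No other photosystem II gene was among these 5.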

How the data were processed

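RIP-seq coverage of the chloroplast genome was analysed in 4 libraries, 2 per group, each made from 50 ng of RNA per the labels. The authors deposited, per the file headers, reads per nucleotide at each position, a coverage signal in whole numbers with no recorded normalization. The mapper, genome build and strand use are not given in the sources used here. Every file held positions 1 to 154478, the length of the TAIR10.1 chloroplast sequence, whose annotation and 1-based coordinates were used.

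Mean coverage per gene (introns included) or per 50 nt bin was scaled to the mean of the same library over the genome (library total), over protein-coding genes, or over psbA. A pseudocount of 1% of that mean was added and log2 taken: 104 to 129, 0.864 to 12.7, and 5.11 to 115 reads per nucleotide. For genes with median-ratio scaling it was 29.2 to 472 reads per nucleotide. Log2 changes are on this scale and understated for genes of low coverage. Features with a mean coverage of at least 10 (112 genes, 2716 bins across the genome) were tested with limma 3.58.1 in R 4.3.3, with Benjamini-Hochberg adjustment over all of them at 0.05. Bins were laid from the first coding base of psbA, giving 29 whole bins and a remainder of 12 nt not used; 27 passed the filter, 21 of them coding. Exact permutation tests used scipy 1.17.1. The limma step was tested on simulated data. That simulation used the true scaling factors, independent noise and a smaller pseudocount. It therefore does not test the scalings or the pseudocount used here. Depth in reads is unknown, so no counting interval was computed, and the number of libraries limits the precision.

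The members, gene lists, tests and alternatives were chosen with earlier results of these data known. The text names psbA, rbcL, the 15 photosystem II genes, the genes adjoining psbA, the 5 protein-coding genes most like it, and the highest, lowest and called bins. Bins chosen for their coverage were chosen after seeing it. Alternatives covered scaling, pseudocount, filter, bin size, gene summary, replicate block and leaving out each library. Protein sequences are not reported here.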

Additional observations from a re-analysis of the deposited data

How the results depend on the processing

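The log2 change of psbA was positive under every alternative run: 0.24 to 4.09 for the library total, and 3.56 to 4.18 when each library was left out, where a group of 1 library is assumed to vary like the other. It passed the threshold in each but 1: median-ratio scaling gave 0.34 (limma adjusted p = 0.0405), 0.35 with a pseudocount of 0.1% and 0.24 with 10% (limma adjusted p = 0.0588), the last 2 added after seeing the data. Scaled to protein-coding coverage it ran from 0.34 to 1.30 and, without a library, from 0.47 to 0.62; the replicate block left it at 0.54 but without a call (limma adjusted p = 0.155).

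Same-numbered libraries did not deviate together, so the numbers are not taken as pairs. The correlation was -0.20 over genes scaled to protein-coding coverage, and -0.60 over genes scaled to the library total. With 2 libraries per group, a negative value means that libraries of unlike number deviated together. The cause of lost calls was not tested. With the replicate block 6 photosystem II genes were higher and 1 lower, and 0 psbA bins higher. Over all genes it gave 34 higher and 22 lower calls against 44 and 31. The crossed block, added after seeing the data, gave 40 and 30, 8 and 3 photosystem II genes, 1 bin higher and 1 bin off the gene-wide change.

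The share difference of 3.27 points was 6.75 without rbcL, and ran from 2.89 to 3.65 without a library. Differences in the 5′ flank ratio, -0.17, were -0.34 with a 100 nt flank, -0.011 with medians and -0.068 against the first 300 nt (-0.23 to -0.12 without a library). Those in the 3′ flank ratio, -0.036, were -0.074, 0.0011 (reversed, with WT medians listed at 0) and -0.064 (-0.053 to -0.02 without a library). The first to last 300 nt ratio, -0.43, was -0.21 with stretches of 100 nt, -0.22 with the 5′ and 3′ parts of the coding sequence split at its middle and 0.11 with medians (-0.59 to -0.26 without a library). The psbA to rbcL ratio, -0.35, was -0.49 with medians and -0.13 over the last 300 nt (-0.41 to -0.28 without a library).

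Of the photosystem II genes, 15 higher and 0 lower for the library total became 8 and 3 with median-ratio scaling, and 7 and 3 with it at either other pseudocount. Scaled to protein-coding coverage, 3 lower became 0 when rRNA and tRNA genes were left out of the scale and 1 without rbcL; without a library 4 to 11 were higher and 0 to 4 lower. On the former scale psbC was at 0.16, psbD 0.091, trnH 0.63, trnK 0.44 and the opening bin 0.70. psbI was at -0.091 with median-ratio scaling, -0.054 with medians per gene and -0.0033 with exons only (-0.39 to 0.47 without a library). The matK change, 0.38, also lost its call with medians (limma adjusted p = 0.0943) and the replicate block (0.333). The trnK change, -0.30, was called with median-ratio scaling (-0.27, limma adjusted p = 0.013) and with exons only (-1.47, limma adjusted p = 0.00133). It was called in the other direction, at 0.44, with rRNA and tRNA genes left out of the scale (limma adjusted p = 0.00928). Without WT replicate 2 the trnK change was -0.39. Without rbcL trnH was at 0.29 and trnK at 0.020; trnK was at 0.10 with medians. Without a library trnH ran from -0.20 to 0.19 and the opening bin from -0.29 to 0.18.

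The 26 bins higher for the library total were 14 with median-ratio scaling, 63 of 66 with 20 nt bins and 13 of 14 with 100 nt bins. The 6 scaled to protein-coding coverage were 14 with median-ratio scaling, 20 with rRNA and tRNA genes left out of the scale, 16 with a pseudocount of 10%, 10 without a filter, 13 with a minimum coverage of 100, 16 with an intensity trend and 14 with 20 nt bins (0 to 18 without a library). The 0 bins off the gene-wide change (limma; 4 at an unadjusted p under 0.05) were 1 with a minimum coverage of 100, 2 with an intensity trend and 1 with 20 nt bins (0 to 13 without a library).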
